A study of Mus musculus with 9 samples.

Results

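The variable (V) gene segments of the antibody loci were followed through 9 RNA-seq libraries of mouse gastrocnemius, a calf muscle. A gene was included if its symbol began with Ighv (heavy chain), Igkv (kappa light chain) or Iglv (lambda light chain), if it was annotated as a functional V segment, and if it had at least 10 read counts summed over the 9 libraries. Of 216 functional V segments in the count tables, 155 met this rule, among 55401 genes in all: 71 of 113 Ighv, 81 of 100 Igkv and 3 of 3 Iglv segments. A further 37 functional segments had no count in any library and 24 had 1 to 9 counts. Next to the threshold, Igkv12-38 had 8 counts and Igkv2-137 had 9, whereas Igkv5-37 had 11 and Ighv7-1 had 12. The segments were thus chosen by their summed counts in these same libraries, and the presence of counts is a description that was not tested.

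All mice were wild-type FVB animals aged 2 to 3 months, and the gastrocnemius was taken 7 weeks after it was injected. The groups were saline, AAV-GFP (an adeno-associated virus vector for green fluorescent protein) and AAV-GFP-MBNL1∆ (a vector that, by its name, adds MBNL1∆; the title of the series speaks of a decoy RNA-binding protein, and the group is also called the decoy group here), with 3 libraries each. The labels do not name a promoter, serotype or dose, and do not say whether each library was 1 animal, and p-values therefore measure only the spread between these libraries, which may be technical. Each pair of groups was compared.

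An antibody V segment encodes most of the variable domain that touches antigen. In a developing B cell, 1 V segment of each locus is joined to a J segment (with a D segment between them in the heavy chain), and that choice is kept by all descendants of the cell. A V transcript in muscle therefore reports B-lineage cells, and antibody-secreting plasma cells carry far more of it per cell than other B cells do. In bulk RNA, fewer B-lineage cells and less antibody RNA per cell cannot be told apart, and a segment that takes a large share may come from many cells or from few.

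The sequences of a heavy and a kappa trio, each taken from a single family that held leading segments, are shown. Their close relation follows from that choice. Ighv1-39, Igkv19-93 and Igkv16-104, which also led libraries, are not printed. All sequences shown are the coding part of the GENCODE M21 transcript (GRCm38, C57BL/6J reference), 5′ to 3′. The last 300 bases are printed, which hold most of the V exon. Ighv8-12 (chr12:115647945-115648387), Ighv8-8 (chr12:115294062-115294504) and Ighv8-5 (chr12:115067560-115068002) lie on the minus strand of chromosome 12 and have 358 coding bases each. Capitals mark the bases that differ from Ighv8-12, 16 in the printed stretch of Ighv8-8 and 18 in that of Ighv8-5.
Ighv8-12: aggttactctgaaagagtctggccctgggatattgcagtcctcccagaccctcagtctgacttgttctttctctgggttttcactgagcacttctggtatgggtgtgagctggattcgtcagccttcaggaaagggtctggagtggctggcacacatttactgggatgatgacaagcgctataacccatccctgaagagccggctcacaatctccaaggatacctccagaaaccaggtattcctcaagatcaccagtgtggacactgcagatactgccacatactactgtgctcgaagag
Ighv8-8: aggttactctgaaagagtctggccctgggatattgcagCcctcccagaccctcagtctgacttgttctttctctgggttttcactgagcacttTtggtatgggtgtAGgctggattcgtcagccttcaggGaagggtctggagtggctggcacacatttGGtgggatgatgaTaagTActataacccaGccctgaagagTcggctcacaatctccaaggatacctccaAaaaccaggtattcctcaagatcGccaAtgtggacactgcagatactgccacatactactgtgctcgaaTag
Ighv8-5: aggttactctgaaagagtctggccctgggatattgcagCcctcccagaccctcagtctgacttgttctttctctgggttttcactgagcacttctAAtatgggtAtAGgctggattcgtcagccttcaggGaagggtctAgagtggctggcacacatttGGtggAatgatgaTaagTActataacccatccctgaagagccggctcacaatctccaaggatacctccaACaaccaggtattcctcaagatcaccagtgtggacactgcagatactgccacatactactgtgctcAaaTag
Over all coding bases, Ighv8-8 and Ighv8-5 were 96.1% identical to each other, and they were 94.4% and 93.9% identical to Ighv8-12.

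The leading kappa family is shown in the same way. Igkv12-44 (chr6:69814631-69815154), Igkv12-46 (chr6:69764523-69765022) and Igkv12-41 (chr6:69858420-69858884) lie on the minus strand of chromosome 6 and have 347 coding bases each. Igkv12-41 is shown as a close relative of the others and was chosen after its values were seen. Capitals mark the bases that differ from Igkv12-44, 16 in the printed stretch of Igkv12-46 and 13 in that of Igkv12-41.
Igkv12-44: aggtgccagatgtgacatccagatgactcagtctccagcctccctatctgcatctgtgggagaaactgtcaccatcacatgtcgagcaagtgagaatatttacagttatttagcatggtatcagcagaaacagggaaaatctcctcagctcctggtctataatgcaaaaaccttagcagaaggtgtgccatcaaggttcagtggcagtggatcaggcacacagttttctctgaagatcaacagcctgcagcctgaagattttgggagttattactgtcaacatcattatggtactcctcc
Igkv12-46: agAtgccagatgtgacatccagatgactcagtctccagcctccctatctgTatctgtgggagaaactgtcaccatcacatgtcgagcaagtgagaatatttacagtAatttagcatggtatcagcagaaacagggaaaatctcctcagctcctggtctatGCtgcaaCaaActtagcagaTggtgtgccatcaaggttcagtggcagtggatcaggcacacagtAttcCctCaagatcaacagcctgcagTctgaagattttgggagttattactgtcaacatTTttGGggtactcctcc
Igkv12-41: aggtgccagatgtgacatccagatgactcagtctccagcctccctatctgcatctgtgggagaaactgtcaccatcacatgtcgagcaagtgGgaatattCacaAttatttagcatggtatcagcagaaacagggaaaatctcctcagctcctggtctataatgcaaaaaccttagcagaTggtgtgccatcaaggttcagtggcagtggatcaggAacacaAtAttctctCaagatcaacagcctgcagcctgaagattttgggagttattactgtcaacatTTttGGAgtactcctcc
Identity over all coding bases within the trio ran from 95.1% to 95.7%. The mice were FVB and the annotated segments are those of C57BL/6J. How far alleles of the FVB loci shift reads between related segments was not tested.

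The 9 libraries held 44603618 to 76970849 counts in genes. AAV-GFP 2 stood apart, with the highest summed levels of antibody constant chain, B cell, plasma cell, T cell and macrophage genes and the lowest summed level of the skeletal muscle list (87853 CPM, against 130829 to 188493 CPM in the other 8 libraries), and AAV-GFP 3 had the lowest V levels of the vector libraries. The AAV-GFP-MBNL1∆ libraries had 1 to 6 counts of Xist, a transcript of the inactive X chromosome of females, against 4783 to 10887 in the other 6, and 4650 to 5610 counts of the Y-linked Ddx3y against 22 to 174. The labels give no sex, and vector and sex cannot be told apart in either comparison with AAV-GFP-MBNL1∆.

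V transcripts were all but absent after saline and abundant after either vector in most libraries. Summed Igkv counts were 45, 2 and 75 in saline libraries 1 to 3. AAV-GFP 1 to 3 held 41084, 206639 and 169, and AAV-GFP-MBNL1∆ 1 to 3 held 15723, 5316 and 4060. The vector groups thus each exceeded saline, but the AAV-GFP group ran from the highest library of the study to one close to saline, and the AAV-GFP-MBNL1∆ libraries lay inside that range.

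Ighv totals were lower than Igkv totals in every vector library, and ranked those libraries in the same order. They were 1, 4 and 19 after saline, 7276, 42272 and 29 after AAV-GFP, and 2474, 1314 and 222 after AAV-GFP-MBNL1∆. As CPM (counts scaled to a common library size, with the size adjusted by the trimmed mean of M-values), the summed Ighv level was 0.107 ± 0.123 in saline (SD, n = 3), 212 ± 278 in AAV-GFP and 21.5 ± 17.1 in AAV-GFP-MBNL1∆. The summed Igkv level was 0.552 ± 0.480, 1063 ± 1345 and 131 ± 92.8 CPM. For both loci the SD of the AAV-GFP group was larger than its mean. On the log2 scale the ratio of group means was 10.95 (Ighv) and 10.91 (Igkv) for AAV-GFP against saline, 7.64 and 7.89 for AAV-GFP-MBNL1∆ against saline, and −3.30 and −3.02 for AAV-GFP-MBNL1∆ against AAV-GFP. No test was made on these sums over chosen segments. No library of either vector group overlapped saline, whereas the vector groups overlapped each other.

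**Figure D1:**
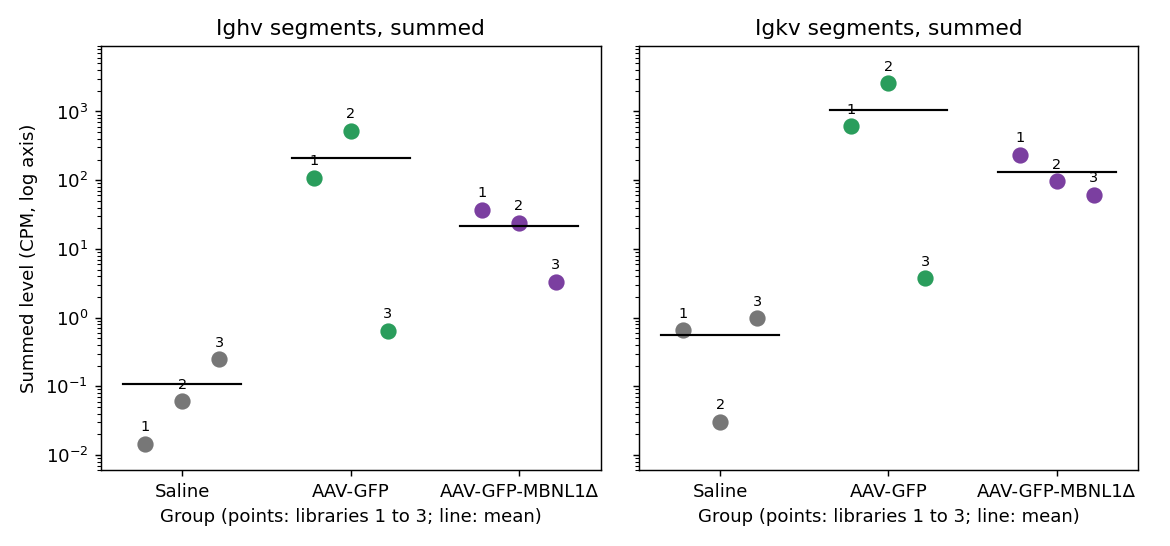
Summed level of Ighv (left) and Igkv (right) segments in each library, in CPM on a log axis; numbered points are libraries 1 to 3 of a group and lines are group means. AAV-GFP spans 0.642 to 527 CPM for Ighv and 3.74 to 2576 CPM for Igkv, with AAV-GFP-MBNL1∆ (3.33 to 37.2 and 60.8 to 236 CPM) inside both ranges and saline below them.

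AAV-GFP 2 alone held 76.3% of all V counts in the study, and the level of 115 of the 155 segments was highest there. For 29 segments AAV-GFP 1 was highest and for 11 an AAV-GFP-MBNL1∆ library was. No segment was highest in saline or in AAV-GFP 3. In saline, 115 of the 155 segments had no count at all, and the saline counts came to 0.0568% (Ighv) and 0.0590% (Igkv) of those in AAV-GFP 2. Whether such counts come from cells in the saline muscles or from reads carried over between libraries was not tested.

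Segment by segment, the test across all genes called few changes. Of the 155 segments, 64 passed the filter on low counts, which asks for a minimum level in 3 libraries, and the other 91 were not tested. For AAV-GFP against saline, 0 of 64 segments were called higher or lower by edgeR's quasi-likelihood test (adjusted p under 0.05), as were 0% of all 18514 genes tested. At an unadjusted p under 0.05, 61 of 64 were higher, against 15.6% of all genes. DESeq2 called 52 of 64 higher, against 8.8% of all genes, and limma-voom called 0 of 64 and 0% of all genes. The fitted log2 fold change was above 0 for all 64, with a median of 10.92, beside −0.01 over all genes. With the 55 segments at 3 or fewer saline counts set to that floor (3 counts over the group), the median was 8.69. Segments enter the test only by being high in some group, so these counts describe them and are not support.

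Igkv6-23 had the lowest unadjusted p of the segments in that comparison, and shared its adjusted p with other segments. Its levels in AAV-GFP were 19.2, 38.1 and 1.06 CPM, and in saline 0, 0 and 0.0520 CPM (0, 0 and 4 counts), so every AAV-GFP library was above every saline library. The log2 fold change was 9.89 (SE 1.69, edgeR adjusted p = 0.0841). In AAV-GFP-MBNL1∆ its levels were 1.40, 2.87 and 0.764 CPM, also without overlap with saline (log2 fold change 6.34, SE 1.73, edgeR adjusted p = 0.0573). Without AAV-GFP 3, 70 of 96 tested segments were called higher in AAV-GFP than in saline, against 15.3% of all genes.

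For AAV-GFP-MBNL1∆ against saline, again 0 of 64 segments were called in either direction, against 4.76% of all genes called higher and 4.6% called lower. At an unadjusted p under 0.05, 28 were higher, against 13.1% of all genes. DESeq2 called 34 of 64 higher, against 8.64% of all genes, and limma-voom 0, against 4.39%. The median log2 fold change was 7.54 (5.43 with the floor), beside 0.02 over all genes, and 63 of 64 were above 0. The groups did not overlap for 37 of 64 segments, against 22.7% of all genes higher without overlap. For AAV-GFP against saline it was 27 of 64 segments, against 14.7% of all genes.

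Between the vectors, 3 of 64 segments were lower in AAV-GFP-MBNL1∆ than in AAV-GFP and 0 were higher, against 10.3% of all genes called lower and 10.8% called higher, so the share of segments called was below the background. All 3 are kappa segments. Igkv8-30 had levels of 18.9, 12.7 and 0 CPM in AAV-GFP and 0.135, 0.164 and 0.0150 CPM in AAV-GFP-MBNL1∆ (log2 fold change −6.66, SE 1.70, edgeR adjusted p = 0.0320). Igkv6-15 had 15.2, 20.5 and 0 against 0.226, 0.236 and 0.165 CPM (−5.83, SE 1.55, adjusted p = 0.0358 by edgeR). Igkv4-91 had 19.2, 179 and 0 against 0.286, 0.0364 and 0 CPM (−9.19, SE 2.38, adjusted p = 0.0334 by edgeR).
In each of them AAV-GFP 3 was at 0, so the groups overlapped or touched, and each call was lost when any 1 of the other 8 libraries was left out (adjusted p up to 0.126). Without AAV-GFP 3 all 3 were still called, among 51 of 96 segments, against 22.4% of all genes called lower. The median log2 fold change over the 64 was −3.18, beside −0.06 over all genes. No segment separated the 2 vector groups without overlap in either direction, against 19.2% of all genes higher in AAV-GFP-MBNL1∆ without overlap. The share of all genes lower without overlap was not computed.

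Which segments were used was described as usage shares: counts per exon length as a percentage of all segments of the locus in that library. Libraries with fewer than 100 counts in a locus (all saline libraries, and AAV-GFP 3 for Ighv) were given no shares. The leading Ighv segments differed between AAV-GFP 1 and 2 on one side and AAV-GFP-MBNL1∆ 1 and 2 on the other. The 29 Ighv counts of AAV-GFP 3, too few for shares, were led by Ighv8-8 (6 counts) and Ighv8-5 (5 counts). That is the pair that led AAV-GFP-MBNL1∆ 1 and 2. Ighv8-12 had 4 counts in AAV-GFP 3 and Ighv1-39 had 1. In AAV-GFP 1, Ighv1-39 led with 24.8%, followed by Ighv8-12 with 12.03% and Ighv8-8 with 10.5%. In AAV-GFP 2 the same 3 segments led with Ighv8-12 first (22.3%), then Ighv1-39 (15.3%) and Ighv8-8 (12.5%).

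In AAV-GFP-MBNL1∆ 1 and 2, Ighv8-8 and Ighv8-5 led together, with 28.4% and 27.0% in AAV-GFP-MBNL1∆ 1 and 38.6% and 26.7% in AAV-GFP-MBNL1∆ 2. Ighv8-5, 96.1% identical to Ighv8-8 in coding sequence, took 6.35% and 6.02% in AAV-GFP 1 and 2. Ighv8-12 took 4.12% and 1.38% in these decoy libraries, below both AAV-GFP libraries with shares. Its counts were 868, 9363 and 4 in AAV-GFP and 101, 18 and 0 in AAV-GFP-MBNL1∆.

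AAV-GFP-MBNL1∆ 3 followed neither pattern. It held only 222 Ighv counts and was led by Ighv14-2 with 15.9% (34 counts, 15.3% of counts, 95% Wilson interval 11.2% to 20.6%), followed by Ighv8-8 with 10.1% and Ighv1-53 with 7.49%. The corresponding interval of the share of counts for Ighv8-8 in AAV-GFP-MBNL1∆ 2 was 35.8% to 41.0%, and for Ighv1-39 in AAV-GFP 1 it was 23.1% to 25.1%. Intervals cover counting error only. Ighv14-2 took 0.40% and 3.10% in AAV-GFP 1 and 2, against 0.04% and 0.39% in AAV-GFP-MBNL1∆ 1 and 2.

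Saline libraries had too few Ighv counts for shares. The single Ighv count of saline 1 was Ighv1-5, the 4 counts of saline 2 included 2 of Ighv6-3, and Ighv8-8 with 4 of 19 counts led saline 3. Other segments were named by their mean share over all 3 AAV-GFP libraries, although AAV-GFP 3 had only 1 to 3 counts of each. In AAV-GFP 1 and 2 they were Ighv8-11 (1.87% and 1.51%), Ighv1-80 (3.25% and 0.46%), Ighv1-82 (1.71% and 1.14%) and Ighv1-7 (4.50% and 1.99%). Segments not named by this mean reached similar or larger shares there, among them Ighv1-26 (3.18% and 4.08%), Ighv1-4 (4.76% and 1.65%) and Ighv1-63 (0.61% and 4.83%). In the decoy libraries Ighv8-11 took 3.35% and 5.28% in AAV-GFP-MBNL1∆ 1 and 2 and had no count in AAV-GFP-MBNL1∆ 3.

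One row outside the rule bears on these shares. Ighv3-2 (chr12:114033803-114034233), annotated as a pseudogene in the C57BL/6J reference and so not a member, had 11388 counts, more than any Ighv member, and was singled out after its values were seen. It had 1889, 8842 and 8 counts in AAV-GFP 1 to 3, 463, 13 and 169 in AAV-GFP-MBNL1∆ 1 to 3 and at most 2 in a saline library. Its counts equalled 26.0% and 20.9% of the member counts in AAV-GFP 1 and 2, 18.7% and 0.989% in AAV-GFP-MBNL1∆ 1 and 2, and 76.1% in AAV-GFP-MBNL1∆ 3. In AAV-GFP-MBNL1∆ 3 its 169 counts exceeded the 34 of Ighv14-2, so Ighv14-2 led there among members only. Ighv shares, diversity and similarity leave this row out unless pseudogene rows are named.

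Among kappa segments, 4 took the lead in 6 libraries. Igkv19-93 led in AAV-GFP 1 (26.7%) and in AAV-GFP-MBNL1∆ 1 (29.8%). Its counts were 0, 0 and 12 in saline, 10820, 23344 and 3 in AAV-GFP, and 4621, 299 and 4 in AAV-GFP-MBNL1∆, so it was high in 3 libraries and close to absent in 1 library of each vector group. Every 50-base stretch of its transcript is unique among the annotated transcripts, and it is the only member of its family.

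Igkv12-44 led in AAV-GFP 2 (27.7%) and AAV-GFP 3 (46.4%). In AAV-GFP 3 it had 82 of only 169 counts, 48.5% (interval of the share of counts 41.1% to 56.0%). Its counts were 0, 0 and 5 in saline, 3694, 61130 and 82 in AAV-GFP, and 2647, 167 and 227 in AAV-GFP-MBNL1∆. The 61130 counts in AAV-GFP 2 were the highest of any segment in any library. Igkv12-46, its close relative, led in AAV-GFP-MBNL1∆ 2 with 50.9% (51.5% of counts, interval 50.2% to 52.8%) and stood at 7.62%, 9.87% and 3.01% in AAV-GFP and at 16.0% and 4.87% in the other decoy libraries. Igkv12-41 took 4.09% in AAV-GFP 2 (7816 counts) and no more than 0.95% in the other vector libraries.

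AAV-GFP-MBNL1∆ 3 was led by Igkv16-104 with 43.2% (43.5% of counts, interval 42.0% to 45.1%), which took 0.34% and 0.63% in the other decoy libraries and 1.76%, 0.41% and 0 in AAV-GFP. It is 1 of the 11 segments highest in a decoy library: its level was 26.5 CPM there, against 10.97 and 10.66 CPM in AAV-GFP 1 and 2. It had no count in saline, where 3 counts over the group are allowed, so the AAV-GFP-MBNL1∆ mean was at least 659-fold higher and the AAV-GFP mean at least 510-fold higher. Without AAV-GFP-MBNL1∆ 3 the bound for the decoy group was 51.1-fold. Igkv4-57-1 followed in that library with 10.2%. Igkv13-85 took 13.6% in AAV-GFP-MBNL1∆ 1 (2018 counts) and no count in AAV-GFP-MBNL1∆ 2; it was named after its values were seen.

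Further kappa segments were high in 1 or 2 libraries. Igkv6-23 took 29.5% in AAV-GFP 3 (48 of 169 counts, or 28.4%, interval 22.1% to 35.6%) and 0.59% to 3.15% in the other 5 vector libraries. Igkv10-96 took 12.5% in AAV-GFP-MBNL1∆ 2 and 7.39% in AAV-GFP 1. Igkv4-91 took 3.25% and 7.27% in AAV-GFP 1 and 2, Igkv3-1 took 7.96% in AAV-GFP-MBNL1∆ 1, and Igkv8-24 took 4.69% in AAV-GFP 2 (9437 counts). In saline 1, 19 of 45 kappa counts were Igkv4-91 and 13 were Igkv3-2. In saline 2 the 2 counts were 1 each of Igkv8-30 and Igkv15-103. In saline 3, 15 of 75 were Igkv6-32 and 12 were Igkv19-93.

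**Figure D2:**
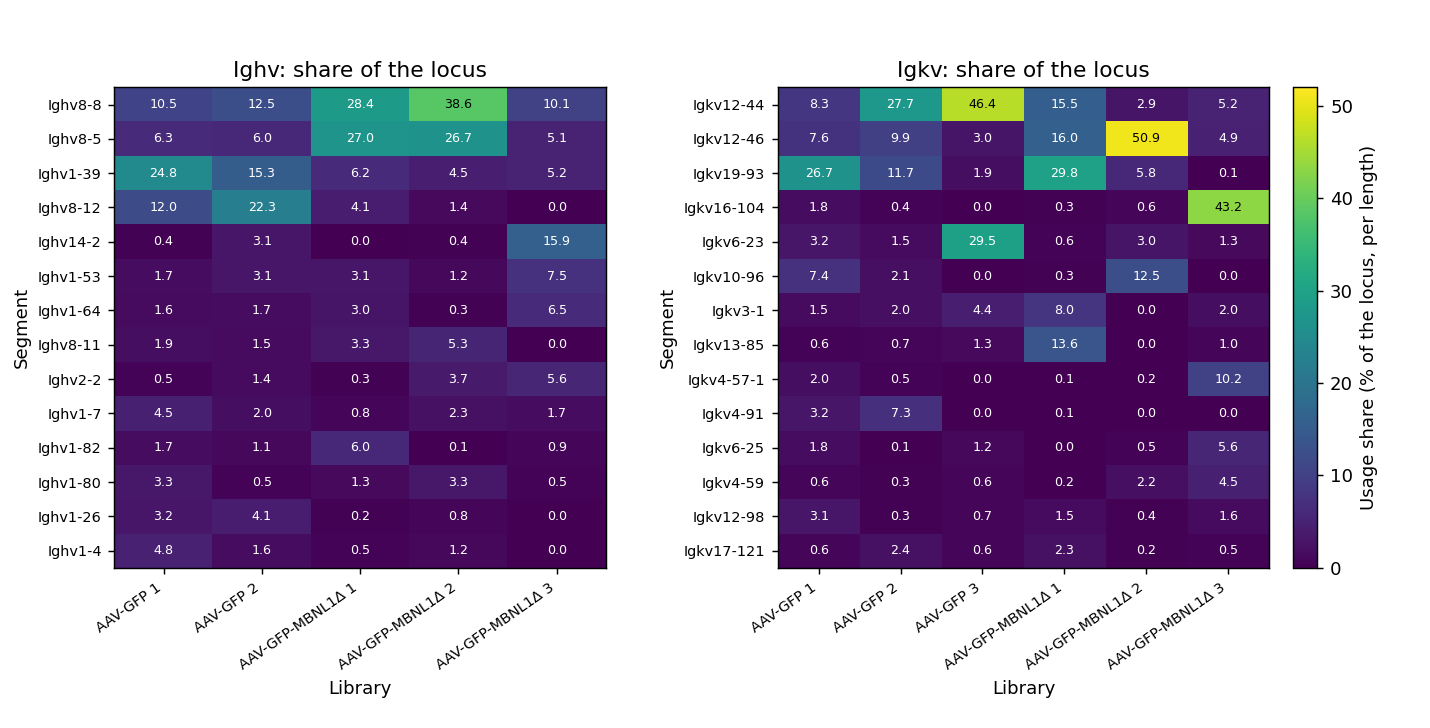
Usage share (% of the locus, counts per exon length) of the 14 Ighv (left) and 14 Igkv (right) segments with the highest mean share over the libraries shown; columns are libraries with at least 100 counts in the locus, colour and printed value give the share. Ighv8-8 and Ighv8-5 are brightest in AAV-GFP-MBNL1∆ 1 and 2, while the brightest Igkv cells are Igkv12-46 with 50.9% in AAV-GFP-MBNL1∆ 2, Igkv12-44 with 46.4% in AAV-GFP 3 and Igkv16-104 with 43.2% in AAV-GFP-MBNL1∆ 3.

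Lambda chains were a small part of the light chains. Iglv1 had 485, 4395 and 1 counts in AAV-GFP, 206, 89 and 54 in AAV-GFP-MBNL1∆, and 0, 0 and 1 in saline. Iglv3 had 37, 185 and 0 counts in AAV-GFP and 10, 8 and 1 in AAV-GFP-MBNL1∆, and Iglv2 had 17 counts, all in AAV-GFP 2. Lambda segments made up 0.588% to 2.18% of light-chain V counts in the 6 vector libraries.

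Heavy and light chains were read together in every vector library. The vector libraries held 4.05 to 18.3 Igkv counts per Ighv count, and the highest ratio was that of AAV-GFP-MBNL1∆ 3. In that library the Ighv3-2 row, which is not counted in these ratios, held 169 counts beside 222 Ighv member counts. For every 100 counts of switched heavy constant chains (IgG, IgA and IgE) there were 3.20 to 12.3 Ighv counts. Against Ighm, the constant chain of IgM, the groups differed. Ighm had 5833 to 12154 counts in saline beside 1 to 19 Ighv counts, and 47005, 49688 and 57673 counts in AAV-GFP-MBNL1∆ beside 2474, 1314 and 222. In AAV-GFP it had 10593, 12458 and 8564 counts beside 7276, 42272 and 29. Ighm counts were therefore high in muscles with hardly any V transcript, and the annotation and counting that give them were not examined further. Igkc, the kappa constant chain, was listed at 0 in all 9 libraries. The lincRNA Gm30211, which overlaps it on the same strand, had 1211, 4860 and 3 counts in AAV-GFP, 358, 167 and 58 in AAV-GFP-MBNL1∆ and at most 4 in saline.

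Diversity was described by the effective number of segments, the number of equally used segments that would give the same Shannon entropy. For Ighv it was 17.6 and 17.7 in AAV-GFP 1 and 2, against 9.88 and 7.88 in AAV-GFP-MBNL1∆ 1 and 2. AAV-GFP-MBNL1∆ 3, with 222 counts, had 22.3, so the groups overlapped (AAV-GFP-MBNL1∆ 13.4 ± 7.81, SD, n = 3). These scores leave out the Ighv3-2 row, which had 169 counts in AAV-GFP-MBNL1∆ 3 beside the 222 member counts. The high value of that library, and with it the overlap, may depend on leaving this row out. The 3 most used Ighv segments took 47.3% and 50.1% in AAV-GFP 1 and 2, against 62.0%, 70.6% and 33.5% in AAV-GFP-MBNL1∆ 1 to 3. At an equal depth of 100 counts, 24.7 and 25.4 Ighv segments would be detected in AAV-GFP 1 and 2, against 17.1, 16.5 and 29.5 in the decoy libraries, the same order as the effective number.

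For Igkv the effective number was 20.1, 17.7 and 5.56 in AAV-GFP and 9.13, 8.13 and 10.4 in AAV-GFP-MBNL1∆ (14.5 ± 7.81 and 9.21 ± 1.13, SD, n = 3). The decoy libraries lay close together and below AAV-GFP 1 and 2, while AAV-GFP 3, with 169 counts, was lowest of all. The 3 most used Igkv segments took 42.6%, 49.2% and 80.3% in AAV-GFP and 61.3%, 69.1% and 59.0% in AAV-GFP-MBNL1∆. At 100 counts, 27.6, 25.5 and 16.0 segments would be detected in AAV-GFP and 15.1, 18.6 and 19.9 in AAV-GFP-MBNL1∆. With 3 libraries a group, and 2 for Ighv in AAV-GFP, no test was made on these scores.

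**Figure D3:**
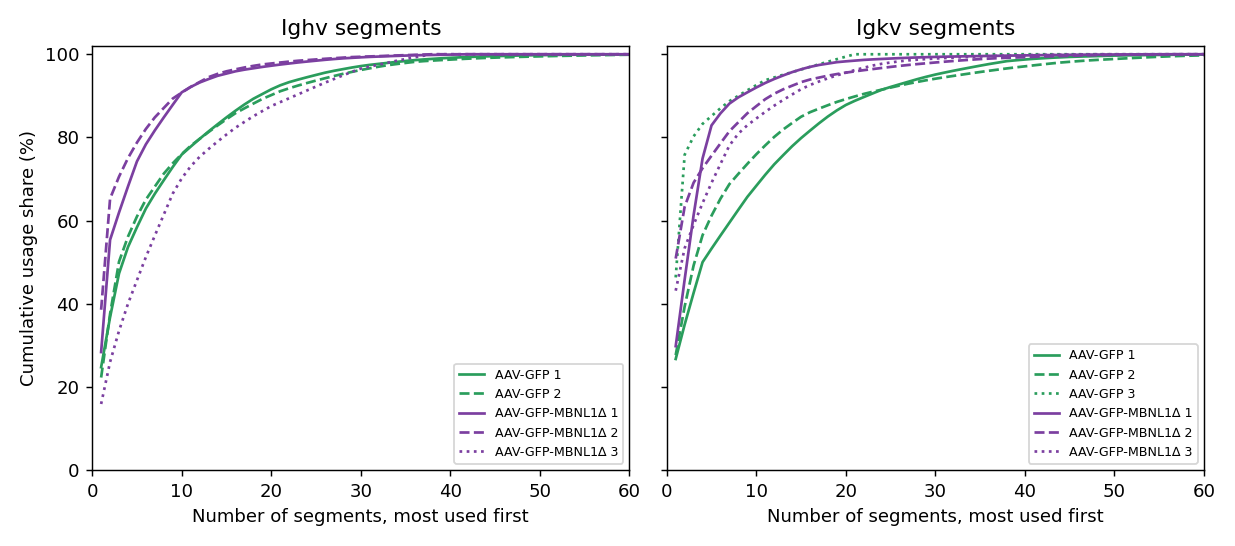
Cumulative usage share (%) against the number of segments, ordered from most to least used, for Ighv (left) and Igkv (right); each line is a library with at least 100 counts in the locus. AAV-GFP 1 and 2 rise more slowly than AAV-GFP-MBNL1∆ 1 and 2 in both loci, and AAV-GFP-MBNL1∆ 3 (dotted purple) lies lowest over the first 20 Ighv segments.

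Sharing was described over AAV-GFP 1 and 2 and the 3 decoy libraries. In all 5 of them 55 of the 155 segments had at least 1 count, and 16 had at least 10 counts each time: 4 Ighv (Ighv1-53, Ighv1-39, Ighv8-5 and Ighv8-8), 11 Igkv and Iglv1. Over the 9 libraries, 57 segments reached 10 counts in just 1, and that library was AAV-GFP 2 for 47 and AAV-GFP 1 for 9 of them. Of the 155 segments, 151 reached 10 counts in an AAV-GFP library and 74 in an AAV-GFP-MBNL1∆ library. The 73 found in both made up 48.3% of the first list and 98.6% of the second. These numbers move with depth: the library with the most V counts, AAV-GFP 2, had 139 segments with at least 10 counts, and AAV-GFP-MBNL1∆ 3 had 36.

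How alike 2 libraries were was measured by the Morisita-Horn similarity of their usage shares, which is 1 for identical and 0 for disjoint usage. Ighv usage was alike in AAV-GFP 1 and 2 (0.856) and in AAV-GFP-MBNL1∆ 1 and 2 (0.938). Pairs across the groups ranged from 0.405 to 0.542, below both of these, but the pairs of AAV-GFP-MBNL1∆ 3 with its own group (0.436 and 0.406) lay in that same range. The decoy mean of 0.593 therefore averages 1 pair of similar usage and 2 pairs that were no more alike than libraries of different groups.

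Igkv usage did not separate the groups. Within AAV-GFP the similarity was 0.642, 0.278 and 0.664, and within AAV-GFP-MBNL1∆ it was 0.465, 0.115 and 0.127. The most alike pair of all came from different groups, AAV-GFP 1 and AAV-GFP-MBNL1∆ 1 (0.818), both led by Igkv19-93, followed by AAV-GFP 2 and AAV-GFP-MBNL1∆ 1 (0.697). AAV-GFP-MBNL1∆ 3 was at 0.115 to 0.146 with every other library. No test was made on pairs, which share libraries.

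**Figure D4:**
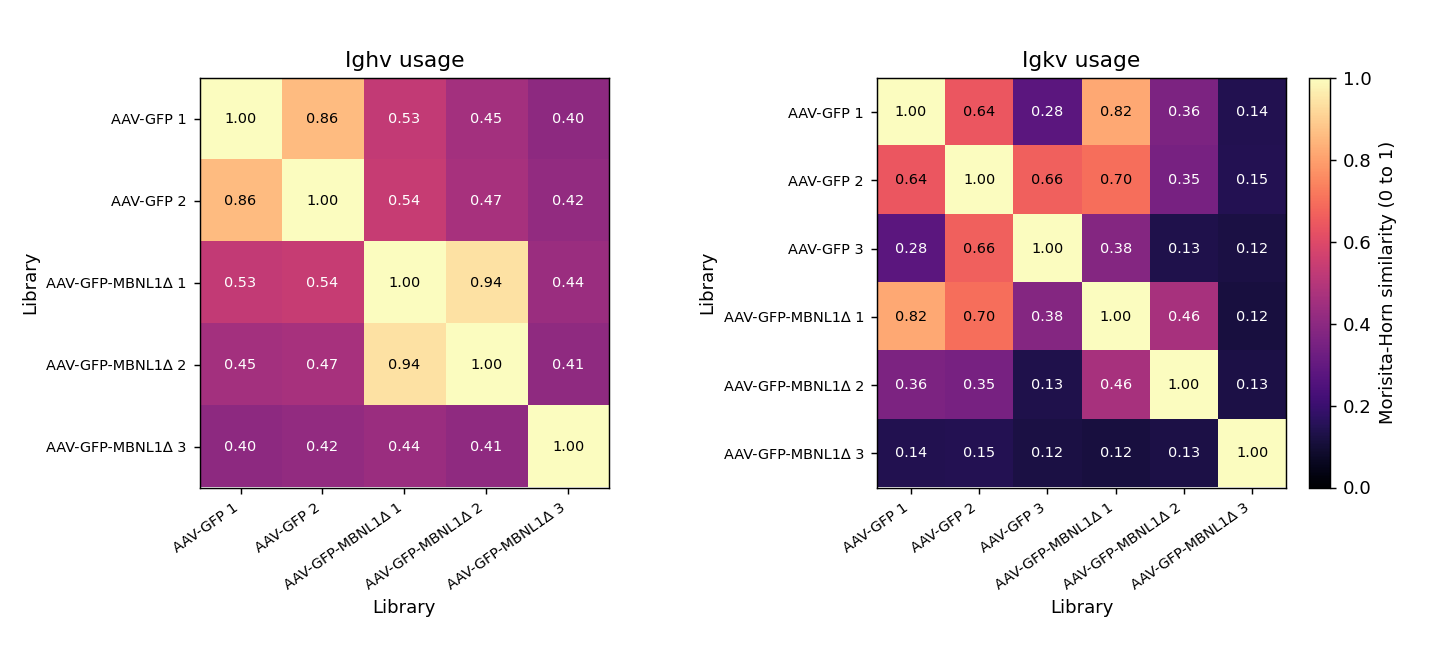
Morisita-Horn similarity (0 to 1) of Ighv (left) and Igkv (right) usage for each pair of libraries with at least 100 counts in the locus; brighter cells are more alike. For Ighv the bright cells off the diagonal are the pairs AAV-GFP 1 and 2 (0.86) and AAV-GFP-MBNL1∆ 1 and 2 (0.94), while for Igkv the brightest pair joins AAV-GFP 1 and AAV-GFP-MBNL1∆ 1 (0.82).

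By family, groups of segments of related sequence, Ighv8 was used beyond its share of the locus in every library with shares. It makes up 7.96% of the annotated functional Ighv segments and took 31.4% and 42.6% in AAV-GFP 1 and 2, against 62.9%, 72.0% and 15.2% in AAV-GFP-MBNL1∆ 1 to 3. Ighv1, the largest family with 46.9% of the segments, took 60.9% and 41.5%, and 33.7%, 17.0% and 42.0%. Both decoy libraries with high Ighv8 were above both AAV-GFP libraries, and AAV-GFP-MBNL1∆ 3 was below them, with 18.1% in Ighv14. No Ighv10, Ighv13, Ighv15 or Ighv16 segment reached the 10 counts of the rule.

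Among kappa families, Igkv12, with 6% of the segments, took 19.0%, 42.0% and 50.7% in AAV-GFP and 33.9%, 54.5% and 11.7% in AAV-GFP-MBNL1∆. Igkv4, the largest family with 26% of the segments, took 11.3%, 12.5% and 1.85%, and 0.913%, 8.02% and 16.9%, below its share of the locus in every one of these libraries. The single segments Igkv19-93 and Igkv16-104 each form a family of their own. How far mRNA yield per cell, clone size or reads shared between relatives enter such shares was not tested.

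**Figure D5:**
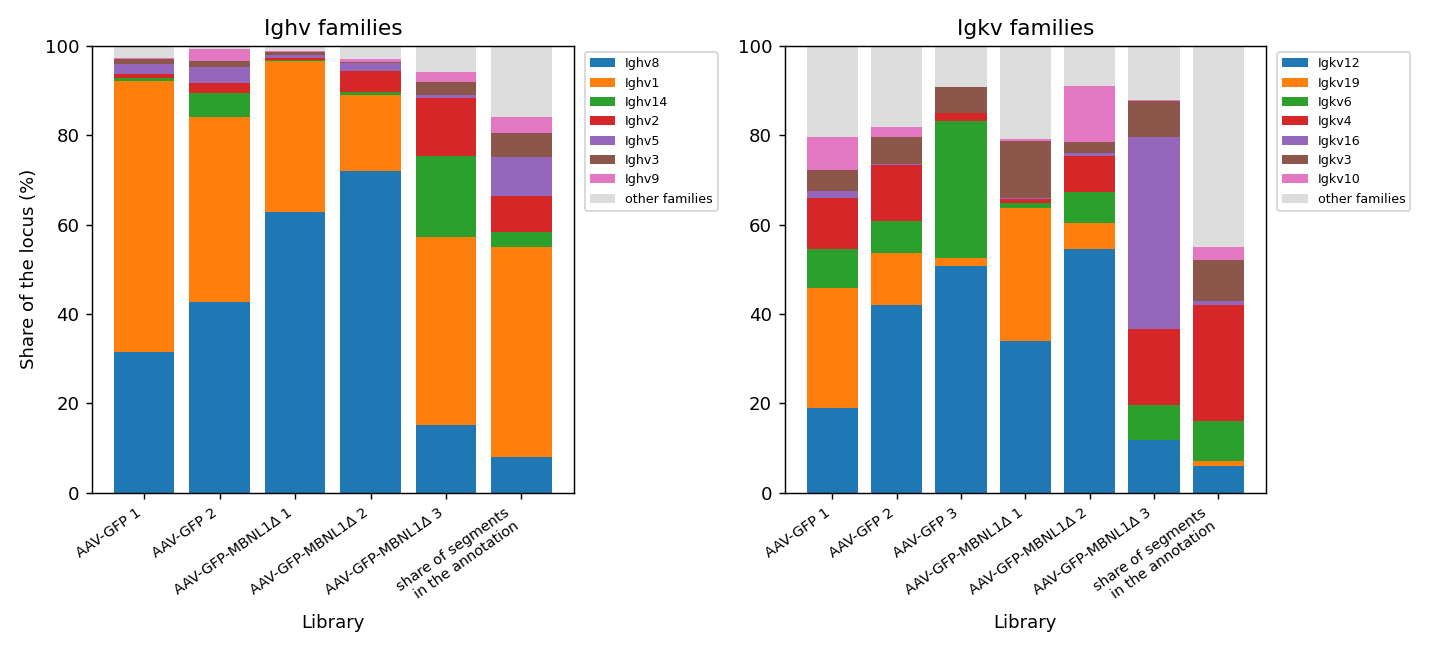
Stacked shares (%) of V families in each library with at least 100 counts in the locus, Ighv left and Igkv right, with the share of annotated functional segments as the last bar. Ighv8 (blue, left) takes 15.2% to 72.0% against 7.96% of the segments, and Igkv12 (blue, right) takes 11.7% to 54.5% against 6%.

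Position in the locus was read from the annotation by ordering the functional segments of each locus by distance from the J segments and dividing them into 4 bins of nearly equal number. For Ighv, the bin farthest from J (chr12:115294062-116000461) took 42.1% and 48.1% in AAV-GFP 1 and 2, against 53.9%, 49.4% and 31.4% in AAV-GFP-MBNL1∆ 1 to 3, and the nearest bin (chr12:113578504-114069281) took 4.87% and 12.02%, and 1.88%, 10.02% and 34.9%. In all but AAV-GFP-MBNL1∆ 3 the nearest bin was thus below the farthest, and Ighv14-2 lies in the nearest. All functional Ighv segments lie on the minus strand. Igkv segments lie on both strands, and those in the direction of the J segments join by deletion and the others by inversion. The 62 of 100 on the minus strand took 77.8% to 92.7% of usage in 5 vector libraries and 32.0% in AAV-GFP-MBNL1∆ 3, which was led by the plus-strand Igkv16-104.

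Related segments can share or lose reads in counting. For each segment, the share of 50-base stretches found in no other annotated transcript was computed. It had a median of 76.7% over Ighv members (2.58% to 100%) and 71.9% over Igkv members (25.5% to 100%), against 79.2% and 96.8% over the functional segments that did not meet the rule. Of the segments printed above it was 80.3% for Ighv8-12, 75.4% for Ighv8-8 and 64.7% for Ighv8-5, and 69.3%, 90.2% and 69.1% for Igkv12-44, Igkv12-46 and Igkv12-41. Values within these trios are therefore uncertain as to which relative the reads came from, more so than those of Igkv19-93 and Igkv16-104 (100% each). Reads that overlapped more than 1 annotated gene made up 2.11% to 2.50% of reads in 8 libraries and 3.65% in AAV-GFP 2. Reads without a unique alignment are a separate class, with 8130905 in AAV-GFP 2 and 7010663 to 11896752 in the other 8 libraries. Neither class was broken down by gene, so neither measures reads shared between V segments.

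Other genes of the pathway were taken from lists written with earlier results of these data known. Calls in each list stand beside the shares of all 18514 genes tested. These were 0% in AAV-GFP against saline, and 4.76% higher and 4.6% lower in AAV-GFP-MBNL1∆ against saline. Between the vectors they were 10.8% higher and 10.3% lower. Of the constant chains, 11 of 12 were tested. In AAV-GFP against saline 0 were called and 11 were above 0 (median log2 fold change 10.72, or 8.33 with genes at 3 or fewer saline counts set to the floor). In AAV-GFP-MBNL1∆ against saline Ighm (2.61, SE 0.24, edgeR adjusted p = 6.46e-04), Ighd and Igha were called higher, and 0 lower. All 11 were above 0 there, with a median of 7.69 (5.22 with the floor). The IgG chain Ighg1 was not called, though its 51.5 to 103 CPM lay above the 0.136 to 2.09 CPM of saline. In that comparison 22.7% of all genes were higher without overlap. With 1 library left out, the Ighm call was kept in 9 of 9 fits, the Ighd call in 3 (without any 1 AAV-GFP library) and the Igha call in 2 (without AAV-GFP 2 or AAV-GFP 3), with adjusted p up to 0.106 and 0.152 for the last pair. Between the vectors only Ighm was called, higher in AAV-GFP-MBNL1∆ (2.30, SE 0.23, edgeR adjusted p = 0.00103).

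Of 18 genes of B cell identity and the B cell receptor, 0 were called in AAV-GFP against saline (18 above 0, median 3.86). In AAV-GFP-MBNL1∆ against saline Spib, a transcription factor of B cells, rose (5.22, SE 1.19, edgeR adjusted p = 0.0321) and Ebf1, a B-lineage factor also expressed in other cells, fell (−0.31), with a list median of 1.99. With 1 library left out, the Spib call was kept in 3 of 9 fits and the Ebf1 call in 2 of 9 (adjusted p up to 0.116 for each). Between the vectors Cd72 and Ebf1 were called lower and 0 higher. The share of the 18 called lower was thus near the 10.3% of all genes. The Cd72 call was kept only without AAV-GFP 3 (where lost, adjusted p reached 0.143), and the Ebf1 call was lost only without AAV-GFP-MBNL1∆ 3 (0.0686).

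Of 12 plasma cell genes, 11 were tested and Mzb1 was listed at 0 in every library. Jchain, which joins secreted IgA and IgM, rose in AAV-GFP-MBNL1∆ against saline (7.05, SE 1.82, edgeR adjusted p = 0.0487). That call was kept only without AAV-GFP 3 and was lost without any 1 of the other 8 libraries (adjusted p up to 0.167). Its levels were 0.212 to 0.585 CPM in saline. AAV-GFP 1 to 3 were at 225, 870 and 2.08 CPM, and AAV-GFP-MBNL1∆ 1 to 3 at 90.6, 43.3 and 29.5 CPM. Against AAV-GFP, Xbp1 (−1.28) and Prdm1 (−2.12), factors of the secretory programme, fell in AAV-GFP-MBNL1∆, beside 10.3% of all genes called lower. Both calls were lost without any 1 AAV-GFP-MBNL1∆ library (adjusted p up to 0.0666 and 0.0866). Xbp1 was at 82.5 to 103.5 CPM in saline, where V transcripts were all but absent, and at 56.98 to 58.73 CPM in AAV-GFP-MBNL1∆. Prdm1 was at 1.953 to 2.471 CPM in saline and 1.363 to 1.504 CPM in AAV-GFP-MBNL1∆. For both genes every AAV-GFP-MBNL1∆ library was thus below every saline library, opposite to Jchain, though neither was called in that comparison. How many of all genes lay lower without overlap in that comparison was not computed. Of the 11 tested genes of this list, 8 were above 0 in that comparison, with a median log2 fold change of 0.67. What part of the Xbp1 or Prdm1 level came from plasma cells was not tested. In AAV-GFP against saline 0 of 11 were called, with a median of 1.78.

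The genes that make new V joins were not measured above traces. Rag1, a subunit of the recombinase, was listed at 0 everywhere, Rag2 had 1 to 4 counts in every library, and Dntt, which adds bases at the joins and was the 1 gene of 5 tested in this list, was not called in any comparison. Of 8 genes of switching, mutation and the germinal centre, 7 were tested, and 0 were called against saline. Gcsam and S1pr2 were lower in AAV-GFP-MBNL1∆ than in AAV-GFP, beside 10.3% of all genes called lower. Both calls were kept only without AAV-GFP 2 or AAV-GFP 3 (where lost, adjusted p reached 0.122 and 0.126).

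Of the octamer factors that bind V promoters, Pou2f2 fell between the vectors (−2.61, SE 0.78, edgeR adjusted p = 0.0478), a call kept only without AAV-GFP 3 (where lost, adjusted p reached 0.152). Pou2af1, their coactivator in B cells, had 1012, 4008 and 9 counts in AAV-GFP, 178, 64 and 44 in AAV-GFP-MBNL1∆ and 2 to 5 in saline, and Pou2f1, which is expressed in many tissues, stayed between 12.9 and 16.2 CPM in all 9 libraries; neither was called. Of 8 genes of B cell attraction and survival, 7 were tested, and Cxcl13 and its receptor Cxcr5 rose in AAV-GFP-MBNL1∆ against saline (4.10 and 4.54, edgeR adjusted p = 0.0420 and 0.0395). With 1 library left out, the Cxcl13 call was kept only without AAV-GFP 3 and the Cxcr5 call only without AAV-GFP 2 or AAV-GFP 3 (where lost, adjusted p reached 0.140 and 0.129). Cxcl13 was at 0.325 to 0.621 CPM in saline. In AAV-GFP 1 to 3 it was at 27.6, 40.4 and 2.35 CPM, and in AAV-GFP-MBNL1∆ 1 to 3 at 11.4, 11.1 and 3.09 CPM.

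Markers of other cells that a muscle sample could hold were measured beside these. For lymph node tissue, Ccl21a and Ccl19 were listed at 0 in all libraries, and Glycam1 and Madcam1 had 2 counts each in the whole study. Chst4 had 1 count in saline 1 and 1 in AAV-GFP-MBNL1∆ 1. Fut7 had 0, 1 and 2 counts in saline, 7, 60 and 4 in AAV-GFP, and 8, 2 and 2 in AAV-GFP-MBNL1∆. Whether a row at 0 in every library means absent RNA or reads lost in counting was not tested. Only Enpp2 of the 7 genes was tested, and it rose with the decoy vector (0.44 against saline, 0.68 against AAV-GFP). Enpp2 is also expressed outside lymph nodes. Its call against saline was kept only without AAV-GFP 2 or AAV-GFP 3 (where lost, adjusted p reached 0.1002), and that against AAV-GFP was kept in 9 of 9 fits. T cell genes (9 of 9 tested) summed to 0.863 to 1.31 CPM in saline, 6.53 to 87.6 CPM in AAV-GFP and 6.44 to 16.0 CPM in AAV-GFP-MBNL1∆, and Lck and Cd3e rose in AAV-GFP-MBNL1∆ against saline, calls kept only without AAV-GFP 2 or AAV-GFP 3 (where lost, adjusted p reached 0.1203 and 0.126). Macrophage genes (7 of 7 tested, 0 called) summed to 64.8 to 86.1, 171 to 1782 and 127 to 201 CPM. Skeletal muscle genes (8 of 8 tested) summed to 144844 to 184528, 87853 to 144740 and 162224 to 188493 CPM, with Acta1 called higher in AAV-GFP-MBNL1∆ than in AAV-GFP, again kept only without AAV-GFP 2 or AAV-GFP 3 (where lost, adjusted p reached 0.122). The part of these shifts in the V segment values was not tested.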

How the data were processed

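Each library was deposited as a table of read counts per gene. Per the submitters' processing notes, the tools were cutadapt 2.10, STAR 2.7.5a, HTSeq 0.12.4 and DESeq2 1.30.0, with the mm10 build. Annotation release and strand setting: not given in the sources used here. Per the labels' protocols, RNA was extracted with Trizol, treated with DNase and made into libraries with an mRNA kit from 250 ng. Gene names, biotypes and positions came from GENCODE M21 (GRCm38), which held 55141 of 55401 gene IDs. Rows that name no gene (5 a library, 16.8% to 18.3% of the reads) entered neither library sizes nor tests. Genes were tested with edgeR 4.0.16 (quasi-likelihood, TMM scaling, low-count filter, all 9 libraries in 1 fit, Benjamini-Hochberg adjustment over 18514 genes, threshold 0.05) in R 4.3.3, after the code was tested on simulated data. Alternatives were DESeq2 1.42.0, limma-voom (limma 3.58.1), other scalings, filters and sample sets, a replicate block, leaving out each library, and other measures of usage. Usage, diversity and similarity were computed from counts per exon length where a locus had at least 100 counts. Members and gene lists were chosen with earlier results of these data known. Segments were named where they led usage in a group or library, were called, or lay next to the count threshold; pathway genes where they were called, with Ighm, Igkc and Jchain. Other genes given with values (Ighv1-53, Ighv3-2, Igkv12-41, Igkv13-85, Rag1, Rag2, Pou2af1 and Pou2f1 among them) were chosen after their values were seen. Libraries sharing a number did not deviate together in every pair (correlations -0.082 to 0.446), so numbers were not treated as pairs. With 3 libraries a group, an exact permutation test cannot go below p = 0.1. Results of some listed genes are not reported here.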

Additional observations from a re-analysis of the deposited data

Results flagged for a closer look

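Rows annotated as V pseudogenes, which no comparison above used, carried reads above the saline level. The 70 Ighv pseudogene rows had a mean summed level of 53.1 CPM (AAV-GFP) or 3.63 CPM (AAV-GFP-MBNL1∆), against 0.0277 CPM in saline, and Ighv3-2 held most of these counts. The 60 Igkv pseudogene rows had 0.786 CPM (AAV-GFP) or 0.0150 CPM (AAV-GFP-MBNL1∆), against 0 in saline; the last of these values rests on 3 counts.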

How the results depend on the processing

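Calls of single segments depended on the setting. The direction of change was followed through the settings for a chosen set of genes, and was not reversed in any of them. For the other segments it was not compared between settings. Segments called higher in AAV-GFP than in saline numbered 0 with edgeR, 52 with DESeq2 (8.8% of all genes) and 7 with a replicate block (0.535%), and 0 to 70 when 1 library was left out, the 70 without AAV-GFP 3 (15.3%). For AAV-GFP-MBNL1∆ against saline the numbers called higher were 0 with edgeR, 34 with DESeq2 (8.64% of all genes), 9 with only the 2 groups compared (12.9%) and 9 with a replicate block (4.03%), and 0 to 14 with 1 library left out, the 14 again without AAV-GFP 3 (6.01%). Segments called lower in AAV-GFP-MBNL1∆ than in AAV-GFP numbered 3 with edgeR, 7 with DESeq2 (16.2% of all genes), 9 with a replicate block (7.03%; 2 of the 3 among them), and 0 with limma-voom (6.81%), with no filter on low counts or with only the 2 groups compared (2.07%); leaving out 1 library gave 0 to 51, the 51 without AAV-GFP 3 (22.4%). Replicate numbers are not known to pair the libraries, and 5 of 9 libraries correlated best with their own number. The effective number of Ighv segments in AAV-GFP was 17.6, and 18.0 from counts, 9.78 as an inverse Simpson index, 14.3 at 100 counts, 15.4 for segments with at least 100 counts and 18.2 with pseudogene rows. The Ighv similarity within AAV-GFP was 0.856, and 0.644 from Bray-Curtis distance, 0.854 from counts, 0.854 without the most used segment, 0.935 for families and 0.901 with pseudogene rows. The pseudogene and family settings were added after seeing the data. The Igkv effective number in AAV-GFP-MBNL1∆ was 9.21, and 4.76 as an inverse Simpson index and 7.84 at 100 counts. With 1 library left out, mean similarity ran from 0.406 to 0.938 for Ighv in AAV-GFP-MBNL1∆, 0.278 to 0.664 for Igkv in AAV-GFP and 0.115 to 0.465 for Igkv in AAV-GFP-MBNL1∆. The cause of these shifts was not tested. Usage measures were not computed for saline, or for Ighv in AAV-GFP 3, because of depth.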
